A study of Mus musculus with 6 samples.

Results

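Transcription factors that govern epidermal differentiation were measured in mouse skin exposed repeatedly to UVB. The set held 10 genes (Trp63, Klf4, Klf5, Grhl1, Grhl3, Ovol1, Zfp750, Cebpa, Cebpb and Prdm1), chosen by name from 19543 gene names on the array that the RefSeq table holds. They had 13 probes, 4 of them for Trp63 and 1 for each other gene, and all 13 were bright enough to be tested, which asked for a signal well above background on 3 or more arrays. Skin from 6 male C57BL/6 mice aged 6 to 8 weeks was hybridised, 3 mice per group and 1 array per mouse. Every mouse had its back shaved. The UVB group was anesthetized and irradiated on the back from 2 days later at 180 mJ/cm2, 3 times a week for 2 weeks, and the control group was kept dark without exposure. Neither anesthesia of the controls nor the time from the last exposure to sampling is given in the sources used here.

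The epidermis renews itself from a basal layer of dividing keratinocytes, which move outward through spinous and granular layers and end as the cornified layer, the skin's barrier. Trp63 encodes p63, which maintains the basal compartment and starts the stratified programme. Factors that act later, such as Klf4, Grhl3, Zfp750, Ovol1 and Prdm1, are known for roles in leaving the cell cycle, building the barrier or completing cornification. C/EBP alpha and C/EBP beta act in the switch from basal to suprabasal cells.

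Of the 10 factors, Prdm1 rose 2.79-fold after UVB, and 1 of the 4 Trp63 probes rose 1.51-fold while the other 3 had negative log2 fold changes. Those 2 of 13 probes passed an adjusted p of 0.05 for a rise and 0 of 13 for a fall, with 6 of 13 at an unadjusted p under 0.05 (limma, Benjamini-Hochberg over all 33762 tested probes). In the background of all tested probes, 11.2% passed, 5.05% as higher and 6.11% as lower. An unadjusted p under 0.05 in limma was found at 10226 of these 33762 probes. The groups of 3 arrays did not overlap at 6 of 13 member probes, with UVB above at 3 and below at 3. Among all tested probes 37.4% did not overlap, 15.7% with UVB above and 21.6% with UVB below. The median log2 fold change of the member probes was 0.10, against -0.03 for all tested probes. With the brightest probe of each gene, 1 of 10 genes rose and 0 fell. Values below are log2 signal relative to each array's 75th percentile, and changes are log2 fold changes, UVB minus control, with the standard error (SE).

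**Figure D1:**
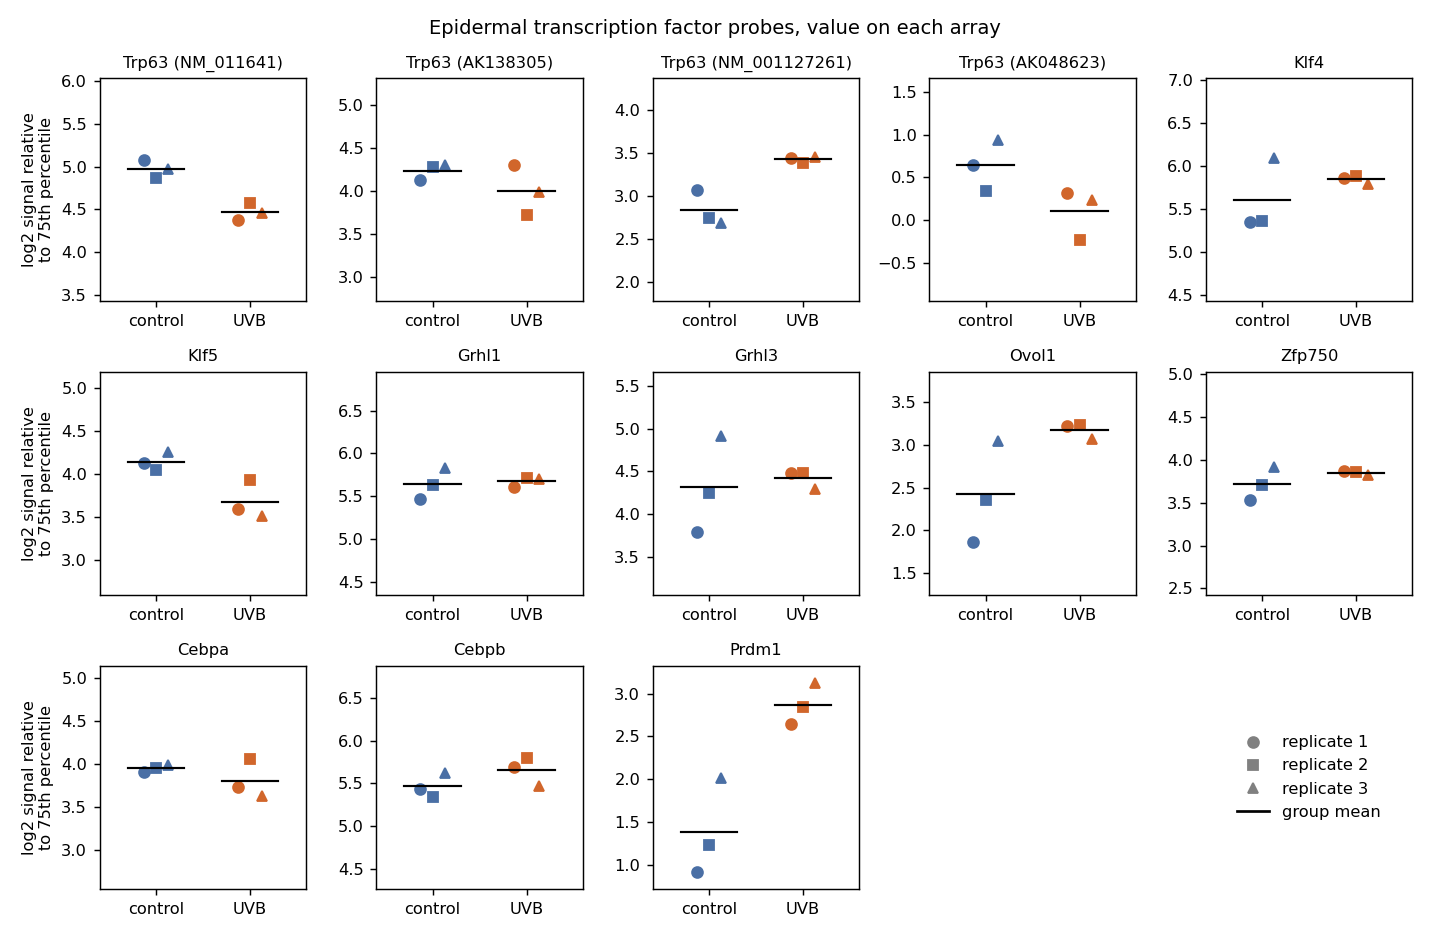
Each panel is 1 probe, with the log2 signal relative to the array's 75th percentile on the vertical axis, 3 control mice (blue) and 3 UVB mice (orange), and a line at the group mean. All panels span the same range of 2.6 log2 units. Prdm1, Ovol1 and the Trp63 probe of NM_001127261 have every UVB array above every control array, and for Ovol1, Grhl3, Klf4 and Zfp750 the controls are spread more widely than the UVB arrays.

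**Figure D2:**
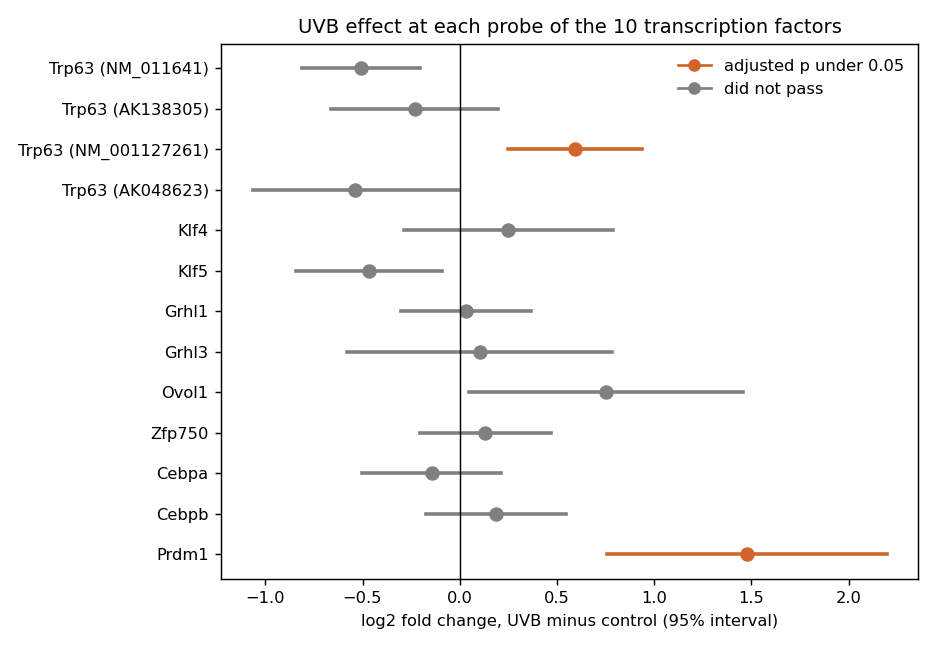
The log2 fold change (UVB minus control) of each of the 13 probes is shown as a point with its 95% interval from limma, 3 mice per group. Orange marks the 2 probes with an adjusted p under 0.05, Prdm1 at 1.48 and the Trp63 probe of NM_001127261 at 0.59.

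The sequence of the rising Trp63 probe and those of a Crebbp and a Klf5 probe are given here, in lower case from 5′ to 3′ as the scanner files list them. The Trp63 probe (mm9 chr16:25871159-25871218, plus strand) holds an unbroken run of 6 CAG units, shown in capitals. The Crebbp probe (mm9 chr16:4084710-4084769, minus strand), for the histone acetyltransferase CBP, is shown because it holds a run of the same length. The Klf5 probe is shown because its 60 bases span 9733 bp of the genome (mm9 chr14:99702656-99712388, plus strand), so that it lies across at least 1 splice junction.
Trp63: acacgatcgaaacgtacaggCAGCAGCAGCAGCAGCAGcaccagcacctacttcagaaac
Crebbp: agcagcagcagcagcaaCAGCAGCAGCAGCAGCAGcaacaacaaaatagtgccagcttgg
Klf5: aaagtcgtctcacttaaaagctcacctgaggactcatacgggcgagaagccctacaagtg

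Trp63 lies on the plus strand of chromosome 16, and its 4 probes differed in what they recorded. Alternative promoters and 3′ splicing of this gene give p63 proteins with and without the aminoterminal activation domain and with different carboxyl ends. The array lists at most 4 accessions for any probe, so the probes could not be assigned to single isoforms, and each is called here by the transcript that the array names for it. Exon and UTR positions of the probes were not analysed here.

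The NM_011641 probe (mm9 chr16:25892012-25892071) read 5.08, 4.87 and 4.98 in the controls and 4.38, 4.57 and 4.45 after UVB. All UVB arrays were below all controls. The change was -0.51 ± 0.13 (SE, n = 3 per group; 95% interval -0.81 to -0.21), and it missed the threshold with an adjusted p of 0.0515 in limma. It passed as lower after normexp background correction (adjusted p = 0.0128, limma), when only probes above background on all 6 arrays were tested (0.0354) and under 2 other settings.

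The AK048623 probe (mm9 chr16:25867718-25867777) was 0.64, 0.35 and 0.94 in controls and 0.32, -0.23 and 0.23 after UVB. Its groups were separated by only 0.03. The change of -0.54 ± 0.22 (SE) did not pass (adjusted p = 0.159, limma). The AK138305 probe (mm9 chr16:25821344-25821403) was 4.13, 4.28 and 4.30 in controls and 4.31, 3.72 and 3.98 after UVB, with overlapping groups. Its change was -0.23 ± 0.18 (SE; 95% interval -0.66 to 0.20; adjusted p = 0.429, limma).

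The NM_001127261 probe went the other way, with 3.07, 2.75 and 2.69 in the controls and 3.44, 3.39 and 3.45 after UVB. The UVB arrays were nearly equal and lay above all controls. The change was 0.59 ± 0.14 (SE; 95% interval 0.25 to 0.94), with an adjusted p of 0.0491 in limma. The call was close to the threshold. It was lost on scaling to the array median (0.48, adjusted p = 0.0820, limma), with no filter on dim probes (0.0816) and without any 1 of control 2, control 3, UVB 1, UVB 2 or UVB 3 (0.0893 to 0.167), and it held without control 1 (0.0461).

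The disagreement between these probes was tested as a difference of differences, within each array. The NM_011641 probe exceeded the NM_001127261 probe by 2.01, 2.12 and 2.29 in controls and by 0.93, 1.19 and 1.00 after UVB, groups that were far apart. The UVB effect at the first minus that at the second was -1.10 ± 0.11 (SE), with an adjusted p of 0.0174 over 5673 probe pairs of all genes (limma), of which 1.82% passed. It did not pass without control 2 (0.0811), control 3 (0.0592), UVB 1 (0.0697) or UVB 3 (0.0656). None of the other 5 Trp63 pairs passed. The differences of the AK048623 and AK138305 probes from the NM_001127261 probe were -1.13 ± 0.23 (SE; adjusted p = 0.0840, limma) and -0.82 ± 0.20 (0.112), and the 3 probes with negative changes differed among themselves by -0.31 to 0.03. Probes of opposite sign were common elsewhere: 26.9% of 3773 genes with more than 1 tested probe had both signs, as did 53.8% of 119 genes with 4 or more.

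Other probes with a long CAG run, looked up after the values were seen, had profiles like that of the rising Trp63 probe. Of the tested probes on the array, 6 held a run of 5 or more CAG units, from Trp63, Crebbp, BC051142, Pif1, Git2 and Arhgap17. The Trp63 probe prompted the search. The 5 others also had UVB above control with no overlap, with log2 fold changes of 0.50 to 0.67. The adjusted p of the 5 that were not Trp63 lay between 0.0579 and 0.0888 in limma, so none of them passed. Among the controls, these 5, like the Trp63 probe, had replicate 1 highest and replicate 3 lowest, an order seen in 22.3% of all tested probes. The Crebbp probe, for example, read 3.96, 3.72 and 3.48 in controls and 4.34, 4.25 and 4.26 after UVB. With 4 or more units 8 of 11 probes lay above, and with 3 or more 11 of 37, against 15.7% of all tested probes. Both counts include the 6 above. Probes with exactly 4 units were split. Those of Eif3h (-0.18) and 1500002O20Rik (-0.40) lay below without overlap, and that of Gm14403 (-0.01) overlapped. Probes without a gene symbol lay above (0.82 and 0.60). Of 3336 probes with the same GC content as the Trp63 probe (55.0%), 13.5% lay above and the median change was -0.02. The part of the CAG run in the rise of the Trp63 probe was not tested.

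**Figure D3:**
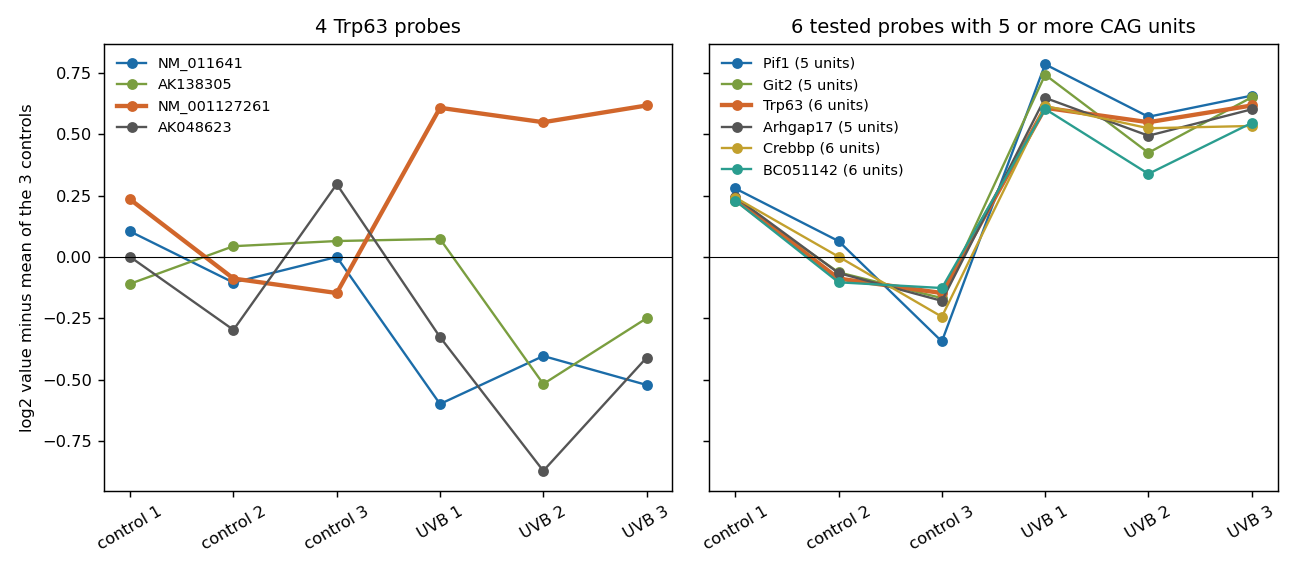
Lines show, for each of the 6 arrays, the log2 value of a probe minus its mean over the 3 controls. The left panel holds the 4 Trp63 probes and the right panel the 6 tested probes with 5 or more CAG units, with the Trp63 probe of NM_001127261 drawn thick and orange in both. It stands apart from the other 3 Trp63 probes on the UVB arrays, and lies among the probes with CAG runs, whose changes were 0.50 to 0.67.

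The probes whose centred profile over the 6 arrays was nearest to each Trp63 probe, among 18773 probes of other named genes, differed accordingly. Those nearest to the NM_001127261 probe were from Zfp329 (root mean square distance 0.027 log2 units), Arhgap17 (0.033) and Thoc2 (0.043). The Arhgap17 probe holds 5 CAG units and the other two hold none. The nearest to the NM_011641 probe were from H2-Q7 (0.028), Ticam1 (0.033) and Nhsl1 (0.041), to the AK138305 probe from Rbbp9 (0.047) and Dalrd3 (0.054), and to the AK048623 probe from Cd164l2 (0.112), Phxr4 (0.130) and Tagap1 (0.134).

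Prdm1 encodes Blimp1, a transcriptional repressor known from terminal differentiation of both keratinocytes and plasma cells. Its probe (mm9 chr10:44157089-44157148, minus strand) read 0.92, 1.23 and 2.02 in the controls and 2.64, 2.84 and 3.12 after UVB. The lowest UVB array was 0.63 above the highest control. The change was 1.48 ± 0.30 (SE, n = 3 per group; 95% interval 0.76 to 2.20), with an adjusted p of 0.0305 in limma. It kept its size, 1.35 to 1.55, under every scaling tried and under normexp. The call was lost with no filter on dim probes (adjusted p = 0.0507, limma) and without any 1 of control 1 (0.0674), control 2 (0.110), UVB 1 (0.0748), UVB 2 (0.0730) or UVB 3 (0.0782), and held without control 3 (0.0156).

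Since RNA of whole skin was measured, more cells of a type and more RNA per cell cannot be told apart. Some markers of other structures also changed after UVB, where 5.05% of all tested probes passed as higher and 6.11% as lower. Of 20 tested hair shaft and inner root sheath markers, 17 rose and 0 fell, with a median of 6.07 against -0.03 for all tested probes. The 20 include 4 that were not well above background in any control, and with those at their lower bounds the median was 5.99. Their summed scaled signal was 23.1 to 27.1 in controls and 337 to 1434 after UVB. The inner root sheath keratin Krt71, measured above background on all arrays, rose by 9.64 (8.94 after normexp, and 9.06 to 10.50 without 1 array), a call that held without each array in turn. Of 8 tested lymphocyte and plasma cell markers, 1 rose and 2 fell, with a summed signal of 37.7 to 45.8 in controls and 31.1 to 37.1 after UVB, and the B lineage markers Ms4a1, Cd79b and Igj were not well above background on enough arrays to be tested. The part of these cells in the Prdm1 rise was not tested.

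The promoter of Prdm1 is shown as that of the member with the largest change. It is the 250 bases upstream of the start in the RefSeq table (GRCm38.p6 chr10:44458749-44458998, minus strand). Capitals mark a match to TGANTCA, a loose form of the AP-1 motif with any base at N, 48 bases before the start. Both strands were searched. The match has A at N, so it is a match to the loose form only. Binding of AP-1 there was not tested.
Prdm1: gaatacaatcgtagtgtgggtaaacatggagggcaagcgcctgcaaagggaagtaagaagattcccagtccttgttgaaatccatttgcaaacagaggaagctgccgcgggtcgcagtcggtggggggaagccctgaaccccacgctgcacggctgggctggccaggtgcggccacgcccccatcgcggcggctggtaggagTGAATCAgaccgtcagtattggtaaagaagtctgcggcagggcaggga
Of all 32851 promoters in the table, 6.75% hold TGANTCA. The table holds promoters of 6 of the 10 members. The GRHL motif AACCGGTT matched none of them and is in 0.116% of all promoters. The C/EBP motif TTGCNNCAA matched 1, a second start of Grhl1, and is in 1.74% of all.

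Ovol1, a zinc finger repressor that restrains keratinocyte proliferation, had the next largest change. Its probe (mm9 chr19:5549209-5549268, minus strand) read 1.86, 2.35 and 3.04 in controls and 3.22, 3.23 and 3.06 after UVB. The groups were separated by 0.02, and the controls spanned more than a log2 unit. The change of 0.75 ± 0.29 (SE; 95% interval 0.05 to 1.46) did not pass (adjusted p = 0.145, limma). Without control 3 it was 1.06 with an adjusted p of 0.0454 in limma, and without control 1 it was 0.47.

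The Krüppel-like factors had point estimates of opposite sign and neither passed. Klf4, which promotes barrier formation, read 5.35, 5.35 and 6.09 in controls and 5.86, 5.89 and 5.79 after UVB (mm9 chr4:55540167-55540226, minus strand). Control 3 was the highest array and the groups overlapped. The change was 0.25 ± 0.22 (SE; 95% interval -0.29 to 0.79; adjusted p = 0.498, limma). Klf5, known from proliferating epithelial cells, read 4.13, 4.04 and 4.26 in controls and 3.59, 3.93 and 3.51 after UVB. All UVB arrays were below all controls. The change of -0.47 ± 0.16 (SE; 95% interval -0.84 to -0.09) had an adjusted p of 0.104 in limma, and it passed after normexp background correction (0.0366) and with a trended, robust variance estimate (0.0472).

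The Grainyhead-like factors, which act on barrier and junction genes, had small point estimates. Grhl1 (mm9 chr12:25302095-25302154, plus strand) read 5.46, 5.63 and 5.83 in controls and 5.61, 5.72 and 5.70 after UVB, a change of 0.03 ± 0.14 (SE; 95% interval -0.30 to 0.37; adjusted p = 0.896, limma). Grhl3 (mm9 chr4:135097991-135098050, minus strand) read 3.80, 4.25 and 4.92 in controls and 4.49, 4.49 and 4.29 after UVB, a change of 0.10 ± 0.28 (SE; 95% interval -0.58 to 0.78; adjusted p = 0.840). In both genes the UVB arrays fell inside the range of the controls. The sign of both changes turned on scaling to the array median and without control 1. The interval of Grhl1 was narrower than that of Grhl3, whose controls were more widely spread.

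Zfp750, a zinc finger factor downstream of p63 in late differentiation, read 3.53, 3.71 and 3.92 in controls and 3.87, 3.86 and 3.82 after UVB (mm9 chr11:121372670-121372729, minus strand). The UVB arrays were nearly equal and lay within the controls' range. The change was 0.13 ± 0.14 (SE; 95% interval -0.20 to 0.47; adjusted p = 0.571, limma).

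Neither C/EBP gene passed. Cebpa (mm9 chr7:35906517-35906576, plus strand) read 3.90, 3.95 and 3.99 in controls and 3.73, 4.05 and 3.63 after UVB, a change of -0.14 ± 0.15 (SE; adjusted p = 0.562, limma). Cebpb (mm9 chr2:167515828-167515887, plus strand) read 5.44, 5.34 and 5.63 in controls and 5.70, 5.80 and 5.46 after UVB, a change of 0.19 ± 0.15 (SE; adjusted p = 0.449). The groups overlapped for both.

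Control arrays differed in a like way at most of these genes. In the brightest probe of each gene, control 1 was lowest and control 3 highest at 7 of 10, an order found at 6733 of all 33762 tested probes. The same order held in 76.0% of the 25 spinous, junction and lipid barrier genes, in 44.8% of the 29 granular and cornified genes and in 76.9% of the 13 sebaceous gland markers, but in 2 of the 20 hair markers. The standard deviation over controls was more than 3 times that over UVB arrays in 5 of 10 members, against 8.59% of all tested probes. For Ovol1 the control and UVB standard deviations were 0.59 and 0.094, and for Zfp750 0.19 and 0.023.

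Genes that mark successive layers and act with these factors are described by lists. Of all tested probes, 5.05% passed as higher and 6.11% as lower, the shares to set beside the list counts. Of 22 tested basal layer genes and p63 targets, 0 rose, 4 fell and 18 did not pass, and the median was -0.31. Integrin alpha 3 (Itga3, -1.15 ± 0.19 SE) and integrin alpha 6 (Itga6, -0.61 ± 0.12), which anchor basal cells, and Fgfr2, a growth factor receptor (-0.55 ± 0.12), fell, with adjusted p of 0.0184, 0.0295 and 0.0380 in limma. The call of Itga3 was lost without control 2 or UVB 1 (adjusted p up to 0.0733), that of Itga6 without any 1 array but UVB 2 (up to 0.114) and that of Fgfr2 without any 1 array (up to 0.149). The basal keratins Krt5 and Krt14 were at 0.10 and -0.30 and did not pass, and the sign of Krt5 turned under other scalings. Krt14 passed as lower in 2 of 12 other settings, quantile normalization (-0.48, adjusted p = 0.0393, limma) and the deposited log2 values (-0.48, 0.0385). The counts use the brightest probe of each gene, and the second tested Krt5 probe fell (-0.81 ± 0.15 SE, adjusted p = 0.0239 in limma), so that the 2 probes disagree. The second Fgfr2 probe fell as well (-0.78 ± 0.14, adjusted p = 0.0223).

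Of 25 tested spinous, junction and lipid barrier genes, 2 rose and 0 fell, against 5.05% and 6.11% of all tested probes. The median was 0.23. The 2 were Ugcg (0.94 ± 0.21 SE) and Sptlc2 (0.55 ± 0.12), enzymes of glucosylceramide and sphingolipid synthesis, with adjusted p of 0.0406 and 0.0386 in limma. The call of Ugcg was lost without any 1 array but control 3 (adjusted p up to 0.127), and that of Sptlc2 without any 1 array (up to 0.150). The second tested Sptlc2 probe was at 0.012 and did not pass (adjusted p = 0.973), so the rise was seen at 1 of 2 probes. The spinous keratins Krt1 (1.13 ± 0.36 SE) and Krt10 (0.42 ± 0.14) did not pass (adjusted p = 0.0944 and 0.101), and the adhesion molecule Cdh1 was at -0.03, a sign that turned under other scalings.

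Of 29 tested granular and cornified layer genes, 12 rose and 0 fell, against 5.05% and 6.11% of all tested probes. The median was 0.99. The envelope proteins involucrin (Ivl, 1.61 ± 0.16 SE) and loricrin (Lor, 0.75 ± 0.15) rose, as did filaggrin (Flg, 3.70 ± 0.75) and repetin (Rptn, 4.68 ± 0.65). Their adjusted p in limma were 0.00442, 0.0313, 0.0312 and 0.0111. The calls of Ivl and Rptn held without each array in turn, that of Lor was lost without any 1 array (adjusted p up to 0.119) and that of Flg without any 1 array but control 3 (up to 0.109). Lor passed in 7 of 12 other settings. Those in which it did not pass include quantile normalization (0.46, adjusted p = 0.112, limma), scaling to the array median (0.0738) and no filter on dim probes (0.0617). The size of the change in Flg was 3.01 to 4.60 without 1 array, and that of Rptn was 4.06 to 5.43, and 3.88 after normexp. Flg read 4.01, 4.95 and 7.19 in controls against 9.06, 9.18 and 9.01 after UVB, so that control 1 was lowest and control 3 highest, as at Ovol1, Grhl3 and Zfp750. The crosslinking enzyme Tgm1 (0.88 ± 0.28 SE) did not pass (adjusted p = 0.0909, limma). Several of these genes are also made in the hair follicle, whose markers rose as given above.

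**Figure D4:**
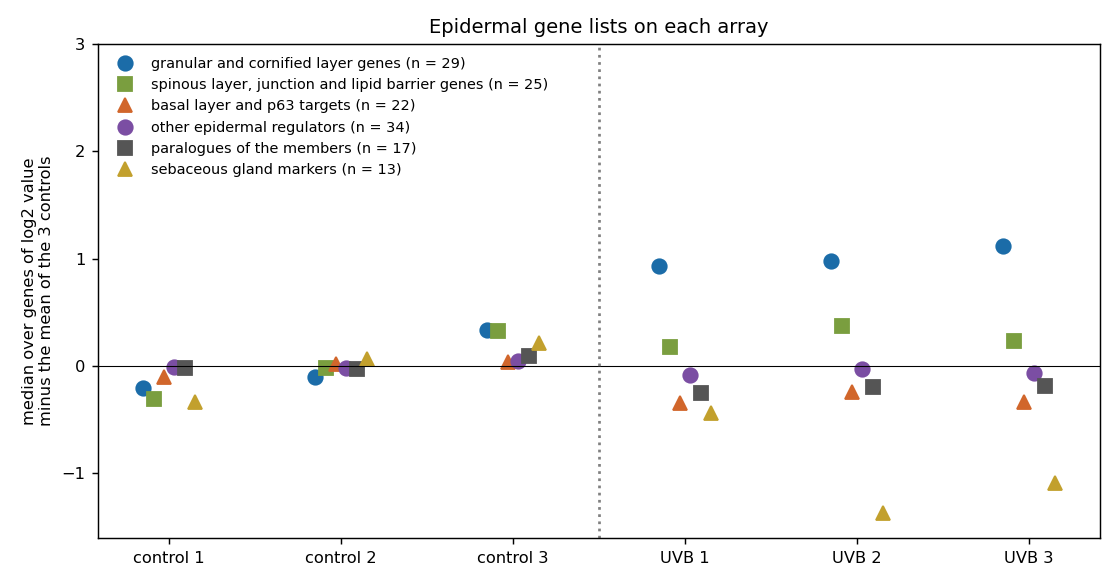
Points show, for each array, the median over the tested genes of a list of the log2 value minus the mean of the 3 controls, with the number of genes in brackets. The granular and cornified layer genes stand at 0.93 to 1.12 on the 3 UVB arrays and the basal layer genes at -0.34 to -0.24, while the regulators other than the 10 members stay between -0.09 and 0.04.

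Among 34 tested regulators of the epidermis other than the members, 4 rose and 3 fell, against 5.05% and 6.11% of all tested probes. The median was -0.10. Among those that rose were Elf3 (1.26 ± 0.20 SE), Dlx3 (0.90) and Maf (0.71), factors known from late keratinocyte differentiation, Dlx3 also from the hair follicle. Those that fell were Satb1, a chromatin organiser (-1.33 ± 0.22), Jag2, a Notch ligand (-1.09 ± 0.15), and Ezh2, a histone methyltransferase of dividing progenitors (-0.61). The call of Elf3 was lost without UVB 1 or any 1 control (adjusted p up to 0.0695 in limma), that of Satb1 without any 1 control (up to 0.0692) and that of Jag2 without control 2 (0.0551). The receptor gene Notch1 was at 0.64 and did not pass (adjusted p = 0.125, limma), and its second probe was at -0.10 (0.743). Of 17 tested paralogues of the members, such as Trp53, Trp73 and Grhl2 (0.16), 0 passed in either direction in limma, and the median was -0.18. An unadjusted limma p under 0.05 was found at 1 of the 17, against 10226 of all 33762 tested probes.

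Of 31 list genes that passed and were named by the rule, 11 passed without each of the 6 arrays in turn.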

How the data were processed

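RNA of 6 skin samples was labelled with Cy3 and hybridised to 1-colour Agilent arrays from 0.2 µg of RNA, per the labels. The authors deposited scanner output holding a processed spot intensity, made with Agilent Feature Extraction 10.7.1.1 per the submitters' processing notes, and a table of log2 values, used only as an alternative, for which the sources used here name no steps. Probe positions are on mm9, per the file headers.

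Intensities were taken to log2 and each array's 75th percentile over non-control spots (signal 302 to 519) was subtracted. Outlier spots (135 to 274 per array) were dropped, 0 spots were saturated, and 54.9% to 63.3% of spots were well above background. Tests covered probes well above background on 3 or more arrays and compared UVB with control, with limma 3.58.1 in R 4.3.3 (lmFit, eBayes) and Benjamini-Hochberg adjustment over 33762 probes, and the code was checked on simulated data. All arrays were on 1 slide with 1 scan time. Their number limits the precision.

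Groups came from the sample titles. The 3 replicates of a group are mice, per the labels. Of a list, the brightest probe of each gene was used, and the 3 passing genes with the largest change and no overlap, plus a preset set of markers, were named. Members, lists and alternatives were chosen with earlier results of these data known. Ezh2, Dlx3, Maf, Trp53 and Trp73 were named after their values were seen. A few genes that the rules name are not reported here. The RefSeq promoters are on GRCm38.p6. Alternatives covered scaling, background correction, filters, variance estimate, replicate number and leaving out each array.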

Additional observations from a re-analysis of the deposited data

How the results depend on the processing

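Among probes of the 10 factors, the number called higher (2) was 1 with scaling on the array median, 0 with no filter on dim probes, 1 with 1 probe per gene name and 0 to 2 without 1 array. The number called lower (0) was 2 after normexp background correction, 2 with a trended robust variance estimate, and 1 each when only probes above background on all 6 arrays, or on all 3 of a group, were tested. The probes called over the whole array (1706 higher, 2063 lower) were 3733 and 3127 after normexp, and 527 to 1104 and 414 to 1246 without 1 array. The number lower was 1075 with no filter and 3199 with the trended robust estimate. Called Trp63 probe pairs (1) were 3 after normexp and 0 to 1 without 1 array. Called list genes, Prdm1 of the members included (44 higher, 19 lower), were 23 to 39 and 6 to 13 without 1 array, and 30 were lower after normexp. The cause of these changes was not tested. Settings without 1 array also rest on fewer arrays.

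The change of Grhl1 turned to -0.074 with median scaling and -0.011 after normexp, and was -0.056 (without control 1) to 0.13 (without control 3) with 1 array left out. That of Grhl3 turned to -0.0057 with median scaling, and was -0.16 (without control 1) to 0.40 (without control 3). The difference between the UVB effects at the NM_011641 and AK048623 probes of Trp63 (0.03) was -0.072 after normexp, and -0.19 (without UVB 2) to 0.18 (without UVB 1), with -0.12 without control 3. The median of all tested probes was -0.14 with median scaling, 0.12 after normexp and 0.16 with no filter.

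Mice with the same replicate number did not deviate together (correlations of -0.11, -0.20 and -0.06), so the numbers do not pair them. With a replicate block, 1 member probe was higher (Prdm1, adjusted p = 0.0447 in limma), 528 probes were higher and 323 lower over the array, the rising Trp63 probe did not pass (0.127), 0 Trp63 pairs passed (0.118 for the pair that passed without it), and 22 list genes were higher and 6 lower. Over all alternatives for single member probes, 205 values kept direction and side of the threshold, 14 lost the call, 7 gained it and 5 turned sign.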

Other observations

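Sebaceous gland markers had a median of -0.80 over 13 tested genes, of which 0 rose and 4 fell. For each count given here, the shares over all tested probes were 5.05% higher and 6.11% lower. The lipid droplet coat protein Plin2 (-1.45 ± 0.18 SE, adjusted p = 0.00839 in limma), the sterol acyltransferase Soat1 (-1.43 ± 0.27, 0.0253) and the desaturase Scd1 (-1.29 ± 0.20, 0.0157) were among the 4. Plin2 passed without each array in turn, Soat1 was lost without control 2, control 3, UVB 2 or UVB 3 (adjusted p up to 0.0968) and Scd1 without control 2 (0.0688). Fibroblast collagens rose: Col1a1 by 2.35 ± 0.45 (SE, adjusted p = 0.0274), Col3a1 by 1.91 ± 0.43 (0.0399) and Col1a2 by 1.70 ± 0.36 (0.0353), with 4 of 7 tested fibroblast markers higher and 0 lower. The calls of the 3 collagens were lost without any 1 array but control 2 (adjusted p up to 0.114). Of 10 myeloid markers, 1 passed as higher and 4 fell. The former was Lyz2, above background in 1 of 3 controls and 3 of 3 UVB arrays, at 1.47 (0.62 after normexp). The 4 that fell were counted by their brightest probes, including the macrophage genes Emr1 (-1.89 ± 0.11, adjusted p = 0.00181; -1.20 after normexp) and Csf1r (-1.52 ± 0.17, 0.00665), whose calls held without each array in turn, while that of Lyz2 was lost without any 1 array (up to 0.123). Of 2 further Csf1r probes 1 fell (-1.19) and 1 was at -0.12 and did not pass. Cd3g and Cd3d, which encode CD3 subunits of the T-cell receptor complex, fell (-2.05 and -1.45). Cd8a was at least 2.27-fold higher after UVB and not well above background in the 3 controls (log2 change 0.65 after normexp). Of 10 adipocyte markers 2 rose (Fabp4, 4.80, or 4.13 to 5.35 without 1 array, and Lipe, 0.94) and 2 fell. The brightest Cidec probe was at least 4.94-fold lower, with a log2 change of -0.89 after normexp, while the second was at -0.37 ± 0.52 (SE) and did not pass. Adipoq and Plin1 were not above background on enough arrays to be tested. The call of Fabp4 was lost without UVB 1 (adjusted p = 0.0560, limma), that of Lipe without any 1 array but control 3 (up to 0.144) and that of Cidec without control 2, control 3, UVB 1 or UVB 2 (up to 0.0851). Of 3 endothelial and 5 skeletal muscle markers, 0 passed in limma. At an unadjusted limma p under 0.05 were 0 and 1, against 10226 of all 33762 tested probes. A bound of this kind sets the mean of the brighter group against the lowest signal well above background on each array of the dimmer group.

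Signs of the change were also counted over probes with runs of other triplets, after the values were seen. Of 51 tested probes with 5 or more AAG units, 50 had a positive log2 fold change, with a median of 0.51, and 1 had UVB above control without overlap, against 15.7% of all tested probes. All 19 with AGG runs were positive, with a median of 0.60 and none free of overlap. Of 8 with GTT runs 6 were positive, all 6 without overlap. All 5 with CTG runs were positive, with a median of 0.25, and 2 of them lay above without overlap. Of 5 with AAC runs 2 were positive, of 4 with ACC runs 3, of 3 with CCG runs 0 and of 2 with ATG runs 2. ATT, GGT and CCT had 1 probe each, positive for ATT and GGT and negative for CCT. Over all tested probes 47.2% were positive.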
